A study of Mus musculus with 8 samples.

Results

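Endothelial identity genes, 10 in number among the 31053 gene identifiers in the count files, were examined in retinal pigment epithelium (RPE) eyecups of Bbs8+/+ and Bbs8-/- mice. They were chosen by name as genes that mark endothelial cells, to serve as a measure of the vascular content of the tissue: Pecam1, Cdh5, Tek, Tie1, Plvap, Vwf, Esam, Eng, Emcn and Cldn5. Bbs8, annotated as Ttc8, encodes a subunit of the BBSome, a complex that moves cargo in and out of cilia. The comparison was of 4 libraries from wild-type (Bbs8+/+) with 4 from knockout (Bbs8-/-) C57/Bl6 mice at postnatal day 11, age-matched littermates that received no treatment, each animal being described as 1 biological replicate. The knockout is constitutive and not restricted to the RPE, so the endothelium, pericytes and stroma carry it as well. Adhering muscle and fat, the cornea, the lens and the retina were taken away before RNA was extracted, which leaves the RPE together with the choroid and sclera. Messenger RNA was counted from the 3′ end of polyadenylated transcripts (QuantSeq).

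The choroid is the vascular layer that nourishes the outer retina, and its innermost part, the choriocapillaris, is a sheet of capillaries lying against the RPE. These capillaries are fenestrated, that is, pierced by pores closed with a thin diaphragm, whereas retinal capillaries are sealed by tight junctions. Endothelial cells are recognised by a shared set of genes for junctional adhesion, angiopoietin and TGF-beta signalling, surface sialomucins and stored clotting proteins. In a tissue homogenate, fewer endothelial cells and less RNA per endothelial cell cannot be told apart.

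The libraries went against the description of 1 animal each, since all 8 held both Xist, which is made in females, and Y-linked transcripts. The sum of 4 Y-linked genes was 59.1 to 65.0 CPM (counts relative to library size) in Bbs8+/+ and 108 to 119.7 CPM in Bbs8-/-. Xist was at 642 to 747 CPM in Bbs8+/+ and 571 to 626 CPM in Bbs8-/-. Neither measure overlapped between genotypes and the directions were opposite, so the mix of sexes and the genotype cannot be told apart in any of these comparisons. How many animals each library held is not known, and the spread between libraries may be smaller than that between animals. Library totals were 2159295 to 2884983 counts in genes in Bbs8+/+ and 1636725 to 2179761 in Bbs8-/-, and reads outside genes were 42.1% to 43.4% and 44.1% to 44.4%, without overlap. Gm42418 took 15.2% to 17.3% and 16.6% to 18.3% of counts. With counts thinned to equal totals, and with Gm42418 and mitochondrial genes left out, 0 of the 10 identity genes passed edgeR's FDR, as with all counts. Thinning takes counts away and could hardly add calls, so this result cannot show whether depth affected the members. Their median log2 fold change was -0.052 after thinning and -0.04 without Gm42418 and mitochondrial genes, beside -0.042 with all counts. The part of the reads outside genes was not tested.

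No endothelial identity gene was called up- or down-regulated in Bbs8-/- eyecups. All 10 passed the filter on low counts (1 CPM or more in 4 or more libraries), and 0 of 10 passed a false discovery rate (FDR) of 0.05 in edgeR's quasi-likelihood test, against 2.24% of the 13813 genes tested (1.1% higher and 1.14% lower in Bbs8-/-). DESeq2 also called 0 of 10, against 1.99% of genes. At an unadjusted p under 0.05 edgeR gave 2 members, Cdh5 and Tie1, both lower in Bbs8-/-, where 13% of all genes reached that level and 6.6% did so with a lower value in Bbs8-/-. DESeq2 gave 1 member, Tie1, against 10.2%. The median log2 fold change of the members was -0.04, beside -0.0041 over all tested genes, with 7 estimates below 0 and 3 above. The unadjusted 95% intervals of the 10 members reached from -0.60 to 0.52 on the log2 scale, so that single-gene changes between a loss of 34.2% and a gain of 43.7% were within the range that these libraries leave.

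**Figure D1:**
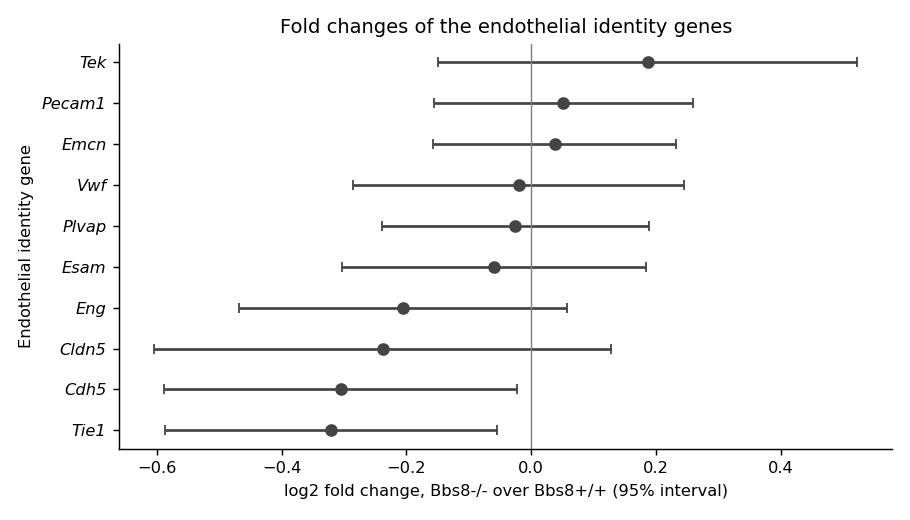
log2 fold changes of the 10 endothelial identity genes in Bbs8-/- over Bbs8+/+ eyecups (x axis), ordered by estimate, with 1 gene per line (y axis). Points are edgeR estimates and bars are unadjusted 95% intervals, of which 8 of 10 cross 0, and those of Cdh5 and Tie1 lie below it.

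The RefSeq promoter table (build GRCm38.p6, 250 bases before to 50 after the gene start) held 5 of the 10 members: Tek, Tie1, Eng, Emcn and Cldn5. The 250 bases before the starts of Tek and Cldn5 are shown, Tek as the member with the highest estimate and Cldn5 because it differed from the other 4 in the motif searched. ETS-family factors, which bind a GGAA core, are well-known activators of endothelial genes. Capitals mark GGAA on either strand, so that TTCC is the same core read on the other strand. The Tek stretch lies at chr4:94739039-94739288 and the Cldn5 stretch at chr16:18776597-18776846, both on the + strand.
Tek: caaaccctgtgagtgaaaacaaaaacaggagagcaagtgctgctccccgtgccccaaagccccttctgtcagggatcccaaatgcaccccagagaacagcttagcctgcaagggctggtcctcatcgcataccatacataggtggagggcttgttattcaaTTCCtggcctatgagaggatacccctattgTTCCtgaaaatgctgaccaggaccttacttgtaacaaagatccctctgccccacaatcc
Cldn5: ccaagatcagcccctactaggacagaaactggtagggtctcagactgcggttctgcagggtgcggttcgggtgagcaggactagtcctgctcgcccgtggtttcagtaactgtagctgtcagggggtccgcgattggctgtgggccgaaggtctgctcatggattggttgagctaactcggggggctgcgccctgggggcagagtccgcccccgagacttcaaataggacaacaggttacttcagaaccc
Over the whole windows, Tek held GGAA 2 times, Tie1 9 times, Cldn5 0 times, Eng 4 times and Emcn 6 times. The RefSeq start of Tie1 lies 212 bases downstream of the gene start given for Tie1 with the values, so 262 of the 300 bases of its window are inside the annotated gene and its matches are not comparable with those of the other 4. Over 32851 promoters of the same length, 96.0% held GGAA, with a median of 3 matches, so its presence marks no particular set of genes. The longer form CAGGAAG, which contains GGAA, was found in the Emcn window and in 13.3% of all promoters. The GATA site AGATAA stood in the Tek window (11.2% of all), the SOX site AACAAT in the Tek and Emcn windows (10.7%) and TATAAA in none of the 5 (13.6%). All motifs were searched on both strands, and a match describes letters only.

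Levels are given as CPM scaled by edgeR's trimmed mean of M-values (TMM), in the order of replicates 1 to 4. A 3′ tag protocol yields about 1 read per transcript and is not scaled by length. The members had 30 to 337 counts in each library, and a count of 3 corresponded to between 1.04 and 1.83 CPM, so all were far above the floor of detection. Ttc8, the targeted gene (chr12:98920574-98983238, mm10), stood at 14.7, 19.7, 18.2 and 21.7 CPM in Bbs8+/+ and at 9.72, 3.66, 2.30 and 4.21 CPM in Bbs8-/-. The genotypes did not overlap for it (log2 fold change -1.95, SE 0.32, edgeR FDR = 2.75e-06), although replicate 1 of Bbs8-/- kept more Ttc8 counts than the other 3. Which part of the gene was removed is not given in the sources used here, so 3′ counts that remain do not speak to the protein.

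Among the junction and adhesion genes, Cdh5 had the lowest unadjusted p. Cdh5 (chr8:104101625-104144511, mm10) encodes VE-cadherin, the cadherin of endothelial adherens junctions. It was measured at 66.9, 60.6, 54.3 and 45.1 CPM in Bbs8+/+ and at 44.3, 42.4, 52.8 and 43.0 CPM in Bbs8-/-. The groups overlapped, since replicate 3 of Bbs8-/- lay above replicate 4 of Bbs8+/+. The means were 56.7 ± 9.31 and 45.6 ± 4.86 CPM (SD, n = 4 each). The log2 fold change of -0.31 (SE 0.14, 95% interval -0.59 to -0.02) did not pass after adjustment over all genes (edgeR FDR = 0.335, DESeq2 FDR = 0.487). Cdh5 overlaps the antisense gene Gm29682, although not in its last exon, and the same holds for Plvap and Gtpbp3.

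Pecam1 (chr11:106654217-106750628) encodes CD31, a homophilic adhesion molecule of endothelial cells, platelets and leukocytes. The libraries gave 112, 106, 97.8 and 82.2 CPM in Bbs8+/+ and at 93.6, 117, 99.7 and 100.1 CPM in Bbs8-/-. The groups overlapped, with the highest value in replicate 2 of Bbs8-/- and the lowest in replicate 4 of Bbs8+/+, and the log2 fold change was 0.05 (SE 0.11, 95% interval -0.16 to 0.26, edgeR FDR = 0.901).

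Esam (chr9:37528078-37538319) encodes an immunoglobulin-family adhesion molecule of endothelial junctions. Its Bbs8+/+ values of 69.5, 67.0, 67.4 and 73.8 CPM lay inside the range of the Bbs8-/- values of 58.3, 69.0, 74.4 and 64.1 CPM, and the log2 fold change was -0.06 (SE 0.12, 95% interval -0.30 to 0.19, edgeR FDR = 0.903). Its Bbs8+/+ libraries had the smallest spread of any member in either genotype, a coefficient of variation of 4.50% where counting error alone gives 7.71%.

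Cldn5 (chr16:18776847-18778262, a single-exon gene) encodes the main claudin of endothelial tight junctions. Levels were 32.8, 29.5, 36.5 and 32.5 CPM in Bbs8+/+ and at 32.8, 15.7, 33.1 and 29.5 CPM in Bbs8-/-. Replicate 2 of Bbs8-/- was the lowest at 30 counts, with an exact Poisson 95% interval of 10.6 to 22.4 CPM that covers counting error only and lies below the other 7 values. Its gap to the next Bbs8-/- library was 0.793 of the group's range, which does not pass Dixon's 95% criterion for 4 samples. The log2 fold change was -0.24 (SE 0.19, 95% interval -0.60 to 0.13, edgeR FDR = 0.647). Without that library the estimate was -0.04, so 1 library carried most of it.

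**Figure D2:**
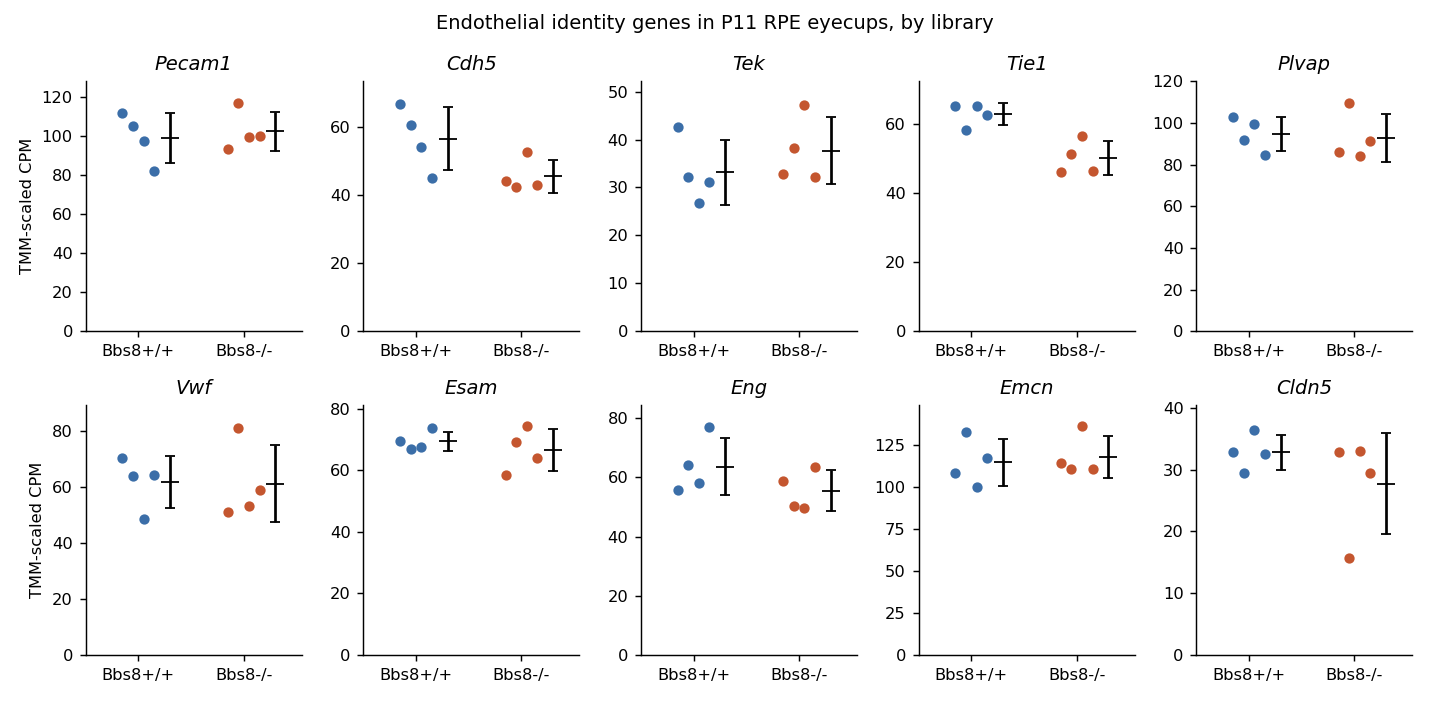
TMM-scaled CPM (y axis, from 0) of each endothelial identity gene in the 4 Bbs8+/+ (blue) and 4 Bbs8-/- (orange) libraries; each point is 1 library in replicate order, and the bar beside it is the mean ± SD. The genotypes separate for Tie1 alone, and the Cldn5 panel shows 1 Bbs8-/- library at 15.7 CPM below the rest.

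The receptor genes Tie1 and Tek were the members with the most opposed estimates. Tie1 (chr4:118471191-118490061) encodes an orphan receptor tyrosine kinase that pairs with the receptor encoded by Tek. Tie1 was measured at 65.2, 58.3, 65.0 and 62.6 CPM in Bbs8+/+ and at 46.2, 51.3, 56.5 and 46.3 CPM in Bbs8-/-. All 4 Bbs8-/- libraries lay below all 4 Bbs8+/+ libraries, and Tie1 was the only 1 of 10 members without overlap, where 7.38% of all tested genes had none and 3.76% had none with the lower values in Bbs8-/-. The means were 62.8 ± 3.21 and 50.1 ± 4.90 CPM (SD, n = 4 each). The log2 fold change of -0.32 (SE 0.13, 95% interval -0.59 to -0.05) missed the threshold after adjustment over all genes (edgeR FDR = 0.255, DESeq2 FDR = 0.356).

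Tek (chr4:94739289-94874976) encodes TIE2, the receptor that binds the angiopoietins. Tek was read at 42.7, 32.3, 26.7 and 31.1 CPM in Bbs8+/+ and at 32.8, 38.2, 47.3 and 32.3 CPM in Bbs8-/-. The groups overlapped, replicate 1 of Bbs8+/+ being higher than 3 of the 4 Bbs8-/- libraries, and the log2 fold change of 0.19 (SE 0.17, 95% interval -0.15 to 0.52, edgeR FDR = 0.719) had the highest estimate of the 10 members.

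Eng (chr2:32646595-32682669) encodes endoglin, a co-receptor for TGF-beta family ligands. The values were 55.7, 64.2, 58.0 and 76.9 CPM in Bbs8+/+ and at 58.9, 50.2, 49.6 and 63.6 CPM in Bbs8-/-. The groups overlapped and the log2 fold change was -0.21 (SE 0.13, 95% interval -0.47 to 0.06, edgeR FDR = 0.549). The last exon of Eng overlaps Fpgs on the opposite strand, and reads of the pair may not be separated, because whether counting used strand is not given in the sources used here. Fpgs itself was counted at 5.29 ± 1.6 CPM in Bbs8+/+ and 4.58 ± 2.34 CPM in Bbs8-/-.

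The genes of the fenestrated and capillary surface were close to even between genotypes. Plvap (chr8:71497765-71511752) encodes the protein of the diaphragms of fenestrae and caveolae and is high in the choriocapillaris. It was measured at 103, 91.8, 99.6 and 84.6 CPM in Bbs8+/+ and at 86.3, 109.8, 84.1 and 91.2 CPM in Bbs8-/-. The groups overlapped, with both the highest and the lowest value in Bbs8-/-, and the log2 fold change was -0.03 (SE 0.11, 95% interval -0.24 to 0.19, edgeR FDR = 0.956).

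Emcn (chr3:137341067-137432185) encodes endomucin, a sialomucin of venous and capillary endothelium. Emcn stood at 108, 133, 100.1 and 117 CPM in Bbs8+/+ and at 114, 110.3, 136 and 110.4 CPM in Bbs8-/-. The groups overlapped, with replicate 3 of Bbs8-/- above its group, and Emcn had the narrowest interval of the members (log2 fold change 0.04, SE 0.10, 95% interval -0.16 to 0.23, edgeR FDR = 0.927).

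Vwf (chr6:125546774-125686679) encodes von Willebrand factor, the clotting protein stored by endothelial cells and platelets. It was measured at 70.3, 63.8, 48.7 and 64.3 CPM in Bbs8+/+ and at 51.0, 81.1, 53.3 and 58.9 CPM in Bbs8-/-. The groups overlapped, replicate 2 of Bbs8-/- being the highest of the 8 libraries, and the log2 fold change was -0.02 (SE 0.13, 95% interval -0.29 to 0.25, edgeR FDR = 0.974). Replicate 2 of Bbs8-/- thus held the highest Pecam1, Plvap and Vwf and the lowest Cldn5 and Cdh5 of its genotype.

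The coefficient of variation within a genotype ran from 4.50% to 29.6% over the 20 gene and genotype combinations, with a median of 12.2% beside a median of 8.42% from counting error alone, and 9 of 20 were within 1.5 times the counting error. The largest was Cldn5 in Bbs8-/-, at 29.6% where counting gives 14.3%.

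Summed over the 10 members, the endothelial level was 726, 706, 654 and 670.3 CPM in Bbs8+/+ and 618, 685, 687 and 639 CPM in Bbs8-/-. The groups overlapped, and the ratio of the Bbs8-/- to the Bbs8+/+ mean was 0.954. No test was made on this sum, because its members were chosen with earlier results of these libraries known. Across the 8 libraries the members had a median pairwise Pearson r of 0.05 over 45 pairs, of which 25 were above 0. How far the sum stands for the vascular content was not tested.

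Ratios between members need no library scaling and compare one endothelial transcript with another in the same eyecup. The ratio of Plvap to Cldn5 counts sets the fenestrated against the tight-junction gene. It was 3.13, 3.11, 2.73 and 2.6 in Bbs8+/+ and 2.63, 7.0, 2.54 and 3.10 in Bbs8-/-. The highest was replicate 2 of Bbs8-/-, whose gap of 0.805 of the range of its group's log2 ratios does not pass Dixon's criterion either, and the difference of the mean log2 ratios was 0.26 (two-sided exact permutation test over 70 assignments, p = 0.83, the smallest possible p being 0.0286). Without that library the difference was -0.07 (exact permutation p = 0.543).

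Of the 45 pairs of members, 4 had count ratios that did not overlap between genotypes, and they are given as a description with no test because they were picked after the values were seen. Pairs share genes, and 7.38% of single tested genes had no overlap. The Tek to Tie1 ratio was 0.656, 0.554, 0.41 and 0.497 in Bbs8+/+ and 0.711, 0.745, 0.837 and 0.697 in Bbs8-/-, a mean log2 difference of 0.51. The Pecam1 to Cdh5 ratio was 1.67, 1.74, 1.80 and 1.82 in Bbs8+/+ and 2.11, 2.77, 1.89 and 2.33 in Bbs8-/-, a mean log2 difference of 0.35. Both ratios were thus higher in every Bbs8-/- library than in any Bbs8+/+ library. The other pairs were Cdh5 to Tek (mean log2 difference -0.49) and Tie1 to Esam (-0.26), and all 4 contained Cdh5 or Tie1.

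**Figure D3:**
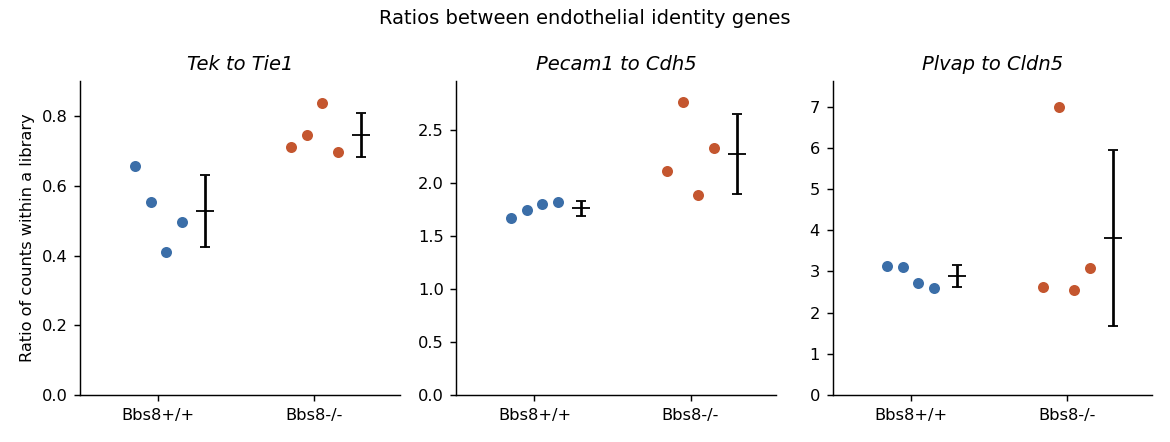
Ratios of raw counts within a library (y axes, from 0) for Tek to Tie1, Pecam1 to Cdh5 and Plvap to Cldn5 in Bbs8+/+ (blue) and Bbs8-/- (orange); points are libraries in replicate order and bars are mean ± SD. The first pair of ratios is higher in all 4 Bbs8-/- libraries, and the third differs by 1 library at 7.0.

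Other endothelial genes were read from 7 lists by role, holding 102 genes of which 97 were tested. Together 3 were up-regulated and 7 down-regulated at FDR 0.05 (3.09% and 7.22% of those tested, where 1.1% and 1.14% of all tested genes were called). The 7 became 3 without replicate 1 of Bbs8-/- and 4 without replicate 2 of Bbs8+/+. Of the 97 estimates 63 were below 0, with a median log2 fold change of -0.13, beside 6979 of 13813 and -0.0041 over all tested genes. Whether the lists differ from the identity genes was not tested. Several of the 10 called genes are also made by stromal, mural or other cells of the eyecup, and the lists were written with earlier results known.

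In the angiopoietin list, 2 of 5 tested genes were down-regulated, where 1.14% of all tested genes were. Ptprb, the endothelial phosphatase VE-PTP that acts on TIE2 and VE-cadherin, was measured at 338, 311, 307 and 288 CPM in Bbs8+/+ and at 217, 270.4, 279.7 and 242 CPM in Bbs8-/-. All Bbs8-/- libraries were below all Bbs8+/+ libraries (log2 fold change -0.30, SE 0.07, edgeR FDR = 0.00588). Angpt1, the TIE2 agonist made mainly by perivascular and stromal cells, fell from 208 ± 10.2 to 167 ± 10.2 CPM (SD, n = 4 each) without overlap (log2 scale -0.32, SE 0.08, edgeR FDR = 0.0104). Angpt2, the context-dependent antagonist, was low and gave a log2 fold change of -0.66 with edgeR FDR = 0.484. The other 2 tested genes of the list had estimates above 0: Angptl1 (0.36, edgeR FDR = 0.217) and Svep1 (0.19, edgeR FDR = 0.719). Ptprb lost its call in 2 of 16 alternative analyses, without replicate 1 of either genotype, and Angpt1 in 2, with counts thinned to the smallest library and without replicate 4 of Bbs8-/-.

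Of the VEGF receptors and co-receptors, 1 of 5 was down-regulated, where 1.14% of all tested genes were. Nrp2, a co-receptor of veins and lymphatics, averaged 205 ± 21.8 CPM in Bbs8+/+ and 166 ± 7.94 CPM in Bbs8-/- (log2 fold change -0.30, SE 0.08, edgeR FDR = 0.0218). The genotypes overlapped for Nrp2, and its call was lost on leaving out any of 6 of the 8 libraries. The receptors Kdr (log2 fold change 0.12, edgeR FDR = 0.520) and Flt1 (-0.25, edgeR FDR = 0.133) did not pass.

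Of 17 tested transcription factors 1 was up-regulated and 2 were down-regulated, and of 14 Notch, artery and vein genes 1 was down-regulated (2.24% of all tested genes were called). Mef2c, a MADS-box factor of endothelium and muscle, rose in Bbs8-/-, the means being 217 ± 25.8 and 279 ± 6.42 CPM (0.36 on the log2 scale, edgeR FDR = 0.000408). Nr2f2, the venous identity factor COUP-TFII, which stromal cells also express, fell from 425 ± 32.9 to 331 ± 23.0 CPM (-0.36, edgeR FDR = 3.14e-05). Both calls held in all 16 alternatives. Ets1 (-0.41, edgeR FDR = 0.0297) and Epas1 (-0.27, edgeR FDR = 0.0441), an ETS factor and the hypoxia factor HIF-2alpha, lost their calls in 9 and 8 of the 16, among them DESeq2 (FDR = 0.0788 and 0.0981). The genotypes overlapped for Ets1 and not for Epas1.

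Among 36 tested surface and junction genes, Egfl7, a secreted endothelial matrix protein, rose from 133 ± 12.6 to 171 ± 16.2 CPM with no overlap of the genotypes (0.36 on the log2 scale, edgeR FDR = 0.00812, lost without replicate 2 of Bbs8+/+ or replicate 4 of Bbs8-/-). Ctnnb1, the beta-catenin that binds VE-cadherin but is present in nearly all cells, fell from 697 ± 24.0 to 589 ± 9.65 CPM (-0.24, edgeR FDR = 0.00207, held in all 16 alternatives). Thus 1 of the 36 was called higher and 1 lower, where 1.1% and 1.14% of all tested genes were, and the remaining 34 genes did not pass.

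The 2 lists that separate capillary types gave few calls. By edgeR and by DESeq2, 0 of 8 choriocapillaris genes passed the FDR, with 2 at an unadjusted p under 0.05 in edgeR, 6 estimates below 0 and a median of -0.45. Over all tested genes, 2.24% passed edgeR's FDR, 13% reached that p and 6979 of 13813 estimates were below 0. The choriocapillaris genes summed to 123 to 169 CPM in Bbs8+/+ and 101 to 115 CPM in Bbs8-/-, without overlap, with means of 138 and 111 CPM. Much of that sum came from Igfbp3 at 49.2 ± 8.57 and 36.4 ± 6.50 CPM (log2 fold change -0.44, edgeR FDR = 0.144) and Col15a1 at 35.2 ± 4.73 and 25.3 ± 5.32 CPM (-0.46, edgeR FDR = 0.211). The 2 estimates above 0 were Rgcc (0.73, edgeR FDR = 0.482) and Esm1 (0.10, edgeR FDR = 0.937). Of 12 tested barrier genes, 1 was up-regulated: Slco1c1, a thyroid hormone transporter of barrier endothelium, at 23.7, 13.8, 16.4 and 26.6 CPM in Bbs8+/+ and 32.2, 42.4, 33.1 and 41.2 CPM in Bbs8-/-. Every Bbs8-/- library lay above every Bbs8+/+ library (0.88, SE 0.19, edgeR FDR = 0.00137), a call that held in all 16 alternatives. The barrier list summed to 733 to 790 CPM in Bbs8+/+ and 712 to 804 CPM in Bbs8-/-, with means of 762 and 769 CPM. Slc16a1 made up most of that sum, at 412 ± 29.9 and 442 ± 45.5 CPM (0.10, edgeR FDR = 0.522). Of the 12 estimates 7 were below 0, and at an unadjusted edgeR p under 0.05 4 genes were lower and 2 higher.

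**Figure D4:**
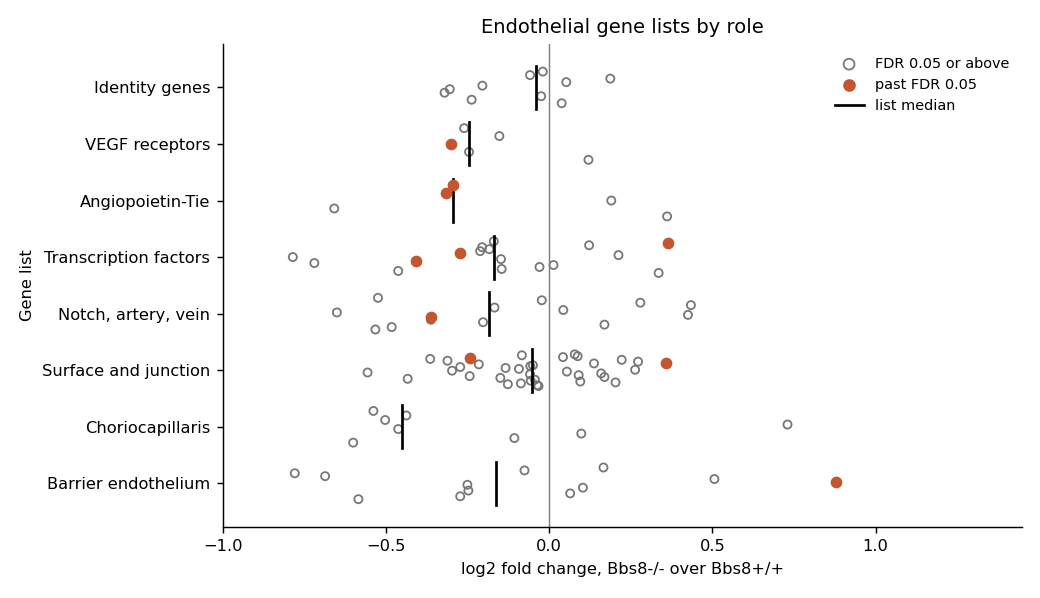
log2 fold changes in Bbs8-/- over Bbs8+/+ (x axis) of each tested gene in the identity list and 7 other endothelial lists (y axis), with genes past FDR 0.05 filled and the list median as a vertical bar. No identity gene is filled, whereas 3 genes of the other lists are filled to the right of 0 and 7 to the left.

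Cells that touch the endothelium were measured in the same libraries. Over all tested genes 1.1% were called higher, 1.14% lower and 2.24% in either direction. Of 12 mural cell genes, 2 were down-regulated, namely Rgs5, a pericyte gene (715 ± 27.3 CPM in Bbs8+/+, 599 ± 20 CPM in Bbs8-/-, log2 fold change -0.26, edgeR FDR = 0.000858), and Notch3, a receptor of mural cells (37.5 ± 5.18 to 24.1 ± 5.45 CPM, -0.65, edgeR FDR = 0.0324, DESeq2 FDR = 0.0742). The Notch3 call was also lost without any of 6 libraries, whereas that of Rgs5 held in all 16 alternatives. The mural list summed to 1696 to 1764 CPM in Bbs8+/+ and 1512 to 1641 CPM in Bbs8-/-, but it did not move as one. Of its 12 estimates 9 were below 0 and 3 above. Those above were Acta2 (254.2 ± 8.27 and 272.5 ± 8.30 CPM, without overlap, 0.10, edgeR FDR = 0.592), Tagln (0.19, edgeR FDR = 0.627) and Des (0.50, edgeR FDR = 0.220). Of 10 macrophage genes 1 was up-regulated, Csf1r (0.28, edgeR FDR = 0.0105, lost without replicate 1 of Bbs8+/+ or replicate 4 of Bbs8-/-), and the list summed to 451 to 487 CPM in Bbs8+/+ and 521 to 579 CPM in Bbs8-/-. Platelets also express Vwf and Pecam1, and their marker list had 0 of 4 tested genes called by edgeR or DESeq2 and 0 at an unadjusted p under 0.05, with Gp9 and F2rl2 at 0 counts in all libraries and sums of 47.6 to 59.1 and 46.8 to 58.1 CPM. Lymphatic genes had 0 of 5 called by either tool and 2 at an unadjusted edgeR p under 0.05 (13% of all tested genes), with Ccl21a at 0 counts throughout.

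Marker lists of other eyecup cells are given by their summed level and calls, beside 2.24% of all tested genes called. No list was tested as a set, and the part of these cells in the values above was not tested. Fibroblast genes summed to 34510 to 36230 CPM in Bbs8+/+ and 27080 to 28290 CPM in Bbs8-/-, with 3 of 10 down-regulated. Most of that sum was Col1a1 (11720 ± 134 and 8752 ± 327 CPM) and Col1a2 (15120 ± 684 and 10310 ± 269 CPM), whereas the stromal proteoglycan gene Dcn was at 5894 ± 151 and 6261 ± 122 CPM (log2 fold change 0.09, edgeR FDR = 0.174), so the list did not move as one. Pigment and melanocyte genes summed to 14150 to 14860 and 11730 to 12310 CPM with 6 of 10 down-regulated, and Schwann cell genes to 634 to 717 and 481 to 531 CPM with 4 of 8 down-regulated. RPE genes, the labelled tissue, were abundant in every library at 17500 to 18610 and 18930 to 19310 CPM with 1 of 10 called in each direction, and lens genes summed to 220.1 to 262 and 594 to 641 CPM with 11 of 16 up-regulated. Photoreceptor genes summed to 502 to 549 and 406 to 464 CPM with 2 of 10 down-regulated. The sums overlapped between genotypes for skeletal muscle (1598 to 1767 and 1760 to 1966 CPM, 2 of 10 up-regulated) and erythroid genes (5167 to 5734 and 5643 to 6504 CPM, 2 of 6 up-regulated). The sums of the other 6 tissue lists did not overlap.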

How the data were processed

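Libraries from 8 eyecup samples were prepared with the QuantSeq 3′ kit and read in single-end mode. Per the study's methods, the authors trimmed reads with the BBMap suite, aligned them with STAR to mm10 and counted unique reads per Ensembl gene. The deposited files hold these raw counts per gene, 1 file per library, with no normalization. The strand setting of the counting is not given in the sources used here. Symbols and coordinates came from the GENCODE annotation of mm10 (31011 of 31053 identifiers matched).

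Genotypes were taken from the sample labels. After a filter of 1 CPM or more in 4 or more libraries, edgeR 4.0.16 was used (R 4.3.3, TMM factors, quasi-likelihood F test, two-sided, Benjamini-Hochberg over 13813 genes, threshold 0.05). DESeq2 1.42.0, other scalings and filters, thinning, a replicate block and leaving out each library were alternatives. The script was tested on simulated data. P-values measure the spread between these libraries, each of which held transcripts of both sexes and so may not be 1 animal. Reads outside genes (42.1% to 44.4%) or ambiguous between genes (0.309% to 0.323%) were left out of library sizes. Library totals of 1636725 to 2884983 counts limit precision, and intervals on counts cover counting error only.

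The members and lists were chosen with earlier results of these data known. Genes named beside the members were Ttc8, the called genes of each list (up to 3, by FDR, otherwise the most abundant) and the 5 genes most like the members. Kdr, Flt1, Angpt2, Angptl1, Svep1, Col15a1, Rgcc, Esm1, Slc16a1, Acta2, Tagln, Des and Fpgs were named after their values were seen. The same holds for markers at 0 and the sex-linked genes. For the lists of other tissues counts and sums are given, with Dcn chosen after its values were seen.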

Additional observations from a re-analysis of the deposited data

Results flagged for a closer look

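Emcn in replicate 3 of Bbs8-/- was 136.0 CPM, whereas the other 3 Bbs8-/- libraries lay between 110.3 and 114 CPM. Its gap to the nearest library was 0.85 of the range of the group, above Dixon's 95% critical value for 4 samples. It was the only one of 24 groups of 4 libraries to pass, and chance alone flags about 1 in 20 groups. Without this library the log2 fold change of Emcn was -0.04 in place of 0.04.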

How the results depend on the processing

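In 16 alternative analyses no identity gene was called, and the smallest edgeR or DESeq2 FDR of any member was 0.181. Of 160 member estimates, 148 kept their direction and 12 changed sign, all on leaving out 1 library and all in 4 genes near 0: Pecam1 (-0.033 to 0.116 over the 8 libraries left out), Plvap (-0.112 to 0.023), Vwf (-0.181 to 0.054) and Emcn (-0.041 to 0.119). Their signs rest on single libraries. The other 6 kept their direction: Tie1 (-0.39 to -0.28), Cdh5 (-0.41 to -0.22), Eng (-0.28 to -0.10), Cldn5 (-0.34 to -0.04), Esam (-0.12 to -0.00) and Tek (0.05 to 0.33). The members' median ran from -0.092 to 0.004, the last without Bbs8-/- replicate 1. The summed level differed by -31.6 CPM (-43.2 to -18.6). The difference between genotypes in the mean log2 ratio of Plvap to Cldn5 ran from -0.072 to 0.41 on leaving out 1 library. Over all genes, leaving out 1 library gave 114 to 172 up-regulated and 105 to 150 down-regulated.

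Replicate numbers did not pair the libraries: deviations of same-numbered libraries correlated at 0.02, 0.00, -0.05 and -0.06 over 6628 genes. With the number as a block, 134 genes rose, 129 fell and 0 identity genes were called, the members' median was -0.04 and the Plvap to Cldn5 difference was 0.26 (exact sign-flip permutation p = 0.75 over 16 assignments, whose smallest possible p is 0.125, so this test could not pass 0.05).

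The settings for the other endothelial genes were added after seeing the data. Leaving out 1 library gave 2 to 3 up-regulated and 3 to 6 down-regulated, the lowest being 3 without replicate 1 of Bbs8-/- and 4 without replicate 2 of Bbs8+/+. DESeq2 gave 3 and 5. The SEs of the members were 0.10 to 0.19 on the log2 scale, and their spread was a median of 1.56 times the counting error.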

Other observations

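Across the 8 libraries, the genes whose log2(CPM + 1) followed the members' mean standardised level most closely were Ptgfrn (Pearson r = 0.973), Txndc17 (0.955), Zmat1 (0.942), Mtf2 (0.932) and Pde4d (0.927), taken as the highest of 6616 genes with a mean of at least 20 CPM. The points share libraries, depth and scaling, and the values are a description with no test. None of the 5 passed edgeR's FDR between genotypes, with FDR between 0.413 and 0.755. Among the members themselves, the pairwise r over the 8 libraries had a median of 0.05 over 45 pairs, from -0.76 for Vwf with Cldn5 to 0.78 for Pecam1 with Plvap.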
